A study of Mus musculus with 48 samples.

Results

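The comparison described here sets mouse liver around subjective dawn against mouse liver around subjective dusk, over every probe set of the array. Of the 48 hourly pools of the time course, 20 were used. The 10 dawn pools lay within 2 h of CT24 or CT48 (CT22 to CT26 and CT46 to CT50), and the 10 dusk pools within 2 h of CT36 or CT60 (CT34 to CT38 and CT58 to CT62). Circadian time, CT, counts hours in constant darkness from a subjective dawn, so that the hours are those of the former light schedule. All pools came from male wild-type C57BL/6J mice that had lived under equal spans of light and dark, 12 h each, before they were moved to continuous darkness, without any other treatment. RNA from the livers of several mice was combined at each hour and read on 1 Affymetrix Mouse Genome 430 2.0 array. Each window therefore holds 5 pools of the first cycle and 5 of the second, and no hour has a replicate of its own. The spread within a window includes whatever changed over its 5 h, the difference between the cycles is a covariate of the test, and p-values measure the spread between pools, not between animals.

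The circadian clock of a liver cell is a feedback loop of transcription. ARNTL (also called BMAL1) pairs with CLOCK or NPAS2 and activates genes that carry an E-box, among them the Per and Cry genes, whose proteins then inhibit that pair. A second loop runs through the REV-ERB receptors (Nr1d1, Nr1d2), which repress Arntl where the ROR receptors activate it, and the PAR bZIP factors Dbp, Tef and Hlf and their competitor Nfil3 pass the rhythm on through D-boxes. Mice are nocturnal, so that dusk opens their active and feeding phase and dawn closes it.

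Values are probe set intensities on a linear scale, and differences are dawn minus dusk on the log2 scale with a standard error (SE), so that a positive difference is a higher level at dawn. A probe set was called when its Benjamini-Hochberg adjusted p in limma was under 0.05 over all 45101 probe sets. Each of 18194 genes was read through 1 probe set, that of highest mean over all 48 arrays. In these pooled tissue samples, fewer cells of a type and less RNA per cell cannot be told apart.

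Some pools stood apart. The dusk pools CT60 to CT62 had a median correlation of 0.984 to 0.990 with the other arrays and a 75th percentile of 797 to 945, against 0.990 to 0.995 and 891 to 1068 in the other 17 pools. In genes with a mean intensity of 200 or more, the median SD within a window was 0.17 in the first cycle and 0.25 in the other, on the log2 scale. Among markers of 10 cell types, those of pancreatic acinar cells stood out in 2 dawn pools: their summed intensity was 215742 at CT25 and 58665 at CT46, against 4590 to 7960 in the other 18 pools. None of the 4 measured acinar markers was called (Cpa1, a pancreatic carboxypeptidase, 1.70 ± 1.15, limma, adjusted p = 0.325). Called markers were Fgb of hepatocytes (0.13), Pdgfrb of stellate cells and pericytes (0.76) and S100a9 of neutrophils (0.62), each higher at dawn. The last was lost when any of 4 single pools was left out, with adjusted p up to 0.0572, and without CT60 to CT62 (0.0548). The summed hepatocyte markers, which include albumin, lay between 2716970 and 2856776 at dawn and between 2665774 and 2877559 at dusk. Endothelial, Kupffer cell, bile duct, lymphocyte, erythroid and adipocyte markers gave no call among the members measured, and at an unadjusted p under 0.05 at most 2 members of each of these lists were higher at dawn and at most 1 higher at dusk. The part these pools and cell types play in the calls was tested only by leaving pools out.

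Between dawn and dusk 2676 probe sets were called, 1168 higher at dawn (2.59% of all) and 1508 higher at dusk (3.34%). Of these, 981 differed by more than 1.5-fold, 573 higher at dawn (1.27%) and 408 higher at dusk (0.905%). Read by gene, 657 were higher at dawn (3.61%) and 893 higher at dusk (4.91%), which in the 9256 genes with a mean intensity of at least 200 came to 639 (6.90%) and 869 (9.39%). In all 20 pools, calls at dusk were thus more numerous. The median fold was 1.48 for genes higher at dawn and 1.31 for genes higher at dusk. More than 2-fold differences were found in 116 genes at dawn and 82 at dusk, more than 4-fold in 21 and 21, and more than 8-fold in 3 and 7. All 10 dawn pools lay above all 10 dusk pools in 147 genes (0.808%), and the reverse held in 135 (0.742%). The median difference of all genes was -0.02. Without CT25 and CT46, 3784 probe sets were called, 1348 higher at dawn and 2436 at dusk, and without CT60 to CT62 2642, 995 and 1647. The number over 1.5-fold was then 1068 and 953, against 981 in all 20 pools. Which side held more of them depended on the setting. Without CT60 to CT62 it was dusk, with 514 against 439 at dawn. With pools within 1 h it was also dusk, 411 against 360, and with array weights each side had 503.

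**Figure D1:**
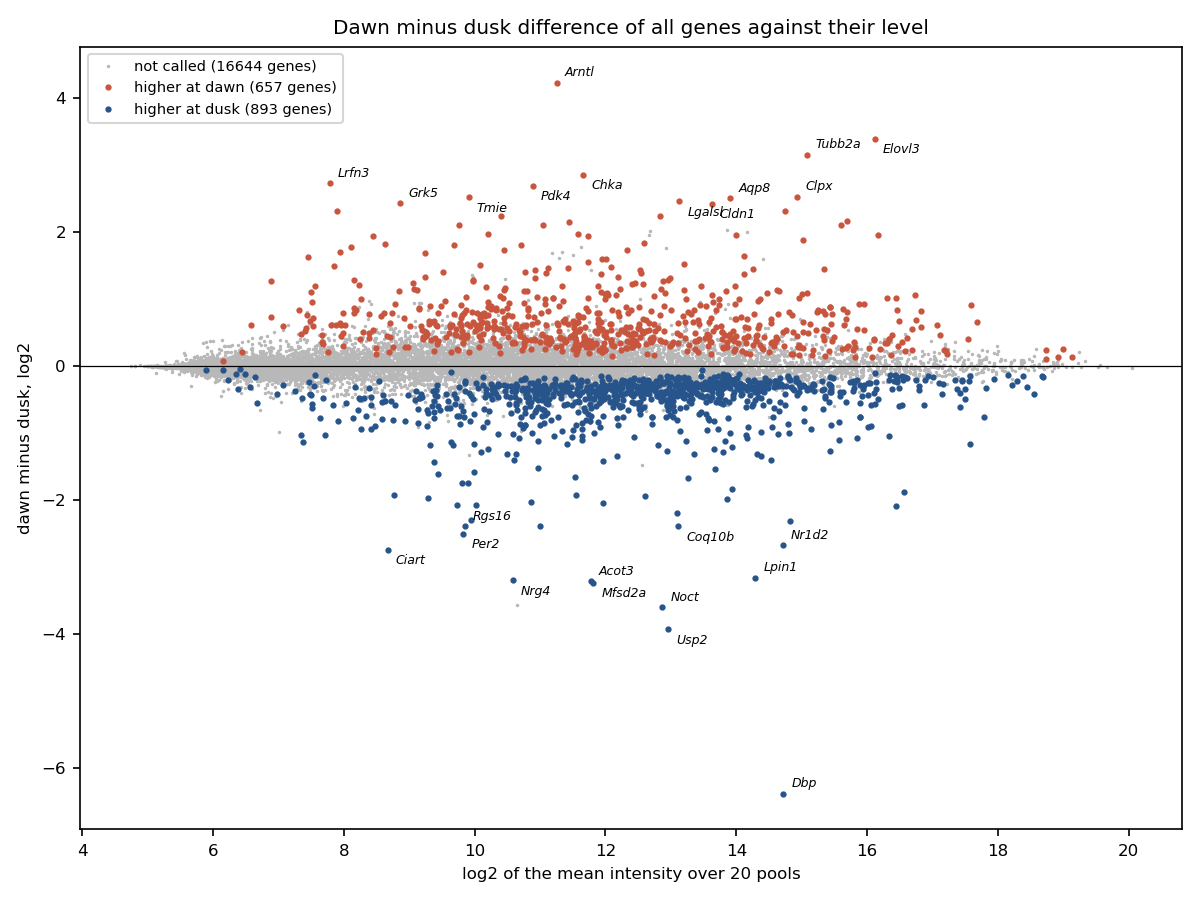
Dawn minus dusk difference (log2, vertical axis) of 18194 genes against the log2 of their mean intensity over the 20 pools (horizontal axis). Red points are the 657 genes called higher at dawn, blue points the 893 called higher at dusk, grey points genes that were not called; the 12 genes of largest difference in each direction are named, from Arntl at 4.23 to Dbp at -6.38.

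The clock list, PAR bZIP factors included, had 21 measured members and 14 calls, 6 higher at dawn and 8 higher at dusk, where 3.61% and 4.91% of all genes were, with differences from -6.38 to 4.23. The transcriptional activators belonged to dawn. Arntl lay between 3871 and 5265 at dawn, with a median of 4392, and between 110.3 and 643 at dusk, with a median of 235. No dusk pool came near the dawn pools, and in both cycles the last pool of the dusk window was its highest, at 423 and 643. The difference was 4.23 ± 0.28, an 18.7-fold change and the largest of all genes at dawn (limma, adjusted p = 2.39e-08), while the other of its 2 probe sets was not called. Npas2, the partner that can replace CLOCK, was called through 1 of its 2 probe sets. On that probe set it lay between 113 and 745 at dawn, with a median of 419.6, and between 68.8 and 88.8 at dusk, with a median of 70.4. Its dusk level was that of a dim probe set, as 49.4% of all probe sets averaged under 100, and its lowest dawn values came 2 h before dawn in both cycles (difference 2.31 ± 0.26, limma, adjusted p = 1.29e-05). Clock itself moved less, with medians of 6818 at dawn and 2564 at dusk and windows that did not overlap (1.33 ± 0.13, limma, adjusted p = 3.26e-06). Nfil3, the repressor that competes with the PAR bZIP factors, was higher at dawn as well, with medians of 5340 at dawn and 1504 at dusk (1.94 ± 0.20, limma, adjusted p = 3.39e-06), and again no pool of one window reached the other.

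The PAR bZIP factors, Per1 and Per2 belonged to dusk. Dbp lay between 258 and 992 at dawn, with a median of 466, and between 8395 and 104759 at dusk, with a median of 52173. It had its highest values 2 h before dusk in both cycles and was lower at every later hour of both windows, down to 29390 at CT38 and 8395 at CT62. Even that last value was over all dawn pools, and the difference of -6.38 ± 0.40 was an 83.3-fold change, the largest of any gene (limma, adjusted p = 9.40e-09). Tef changed 4.56-fold, with medians of 2802 at dawn and 15538 at dusk (-2.19 ± 0.21, limma, adjusted p = 2.13e-06). Hlf had overlapping windows, and its dusk pools CT61 and CT62 were as low as those of dawn (-0.62 ± 0.15, limma, adjusted p = 0.0195). Without CT25 and CT46 its adjusted p was 0.0504, at a difference of -0.51.

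Per2, a repressor of the loop, lay between 164 and 465 at dawn, with a median of 229.9, and between 930.3 and 2485 at dusk, with a median of 1381, and the windows stayed apart in both cycles (-2.51 ± 0.24, limma, adjusted p = 1.80e-06), though neither of its other 2 probe sets was called. Its relative Per1 had medians of 476 at dawn and 745 at dusk and windows that touched at 495, where CT62 was as low as the dawn pools (-0.66 ± 0.15, limma, adjusted p = 0.00952). Per3 did not pass the test through the probe set used (-0.39 ± 0.14, limma, adjusted p = 0.131), although 2 of its 6 probe sets were called higher at dusk. Ciart, a repressor of the ARNTL pair, lay between 73.6 and 111 at dawn, with a median of 89.3, and between 224 and 1179.9 at dusk, with a median of 699, and Bhlhe40, another repressor, had medians of 5237 at dawn and 15394 at dusk with overlap (-2.74 ± 0.30 and -1.31 ± 0.32, limma, adjusted p = 7.99e-06 and 0.0169). Cry1, in contrast to the Per genes, was higher at dawn, at medians of 7464 at dawn and 2926 at dusk (1.23 ± 0.21, limma, adjusted p = 0.000964). Its lowest dawn value, 5217 at CT50, was met by dusk pools at CT37 and CT38. Cry2 did not pass (-0.46 ± 0.16, limma, adjusted p = 0.119), but was called without CT60 to CT62, at a difference of -0.63 (limma, adjusted p = 0.018), and with each array scaled to its 75th percentile, at -0.49 (0.0188).

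Of the nuclear receptors, Nr1d2 lay between 3444 and 13881 at dawn, with a median of 6795, and between 22531 and 59052 at dusk, with a median of 45983, a difference of -2.68 ± 0.25 (limma, adjusted p = 1.62e-06). Nr1d1 did not pass the test (-0.59 ± 0.41, limma, adjusted p = 0.337). Its level belongs to midday, between the windows compared: the mean log2 value was 10.80 over the 10 midday pools (CT28 to CT32 and CT52 to CT56), against 7.34 at dawn and 7.93 at dusk. Rora, the activator on the same element, differed by 0.31 ± 0.065 (limma, adjusted p = 0.00626), through the 1 of its 9 probe sets that was called. Of the 4 other members not yet named, Bhlhe41, Csnk1d, Csnk1e and Fbxl21, none was called, with differences from -0.014 to 0.21. The probe sets of Bhlhe41 and Fbxl21 were dim, with mean intensities of 55.9 and 53.0, and that of Csnk1e averaged 150. The missing calls of these genes therefore say little about their levels.

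**Figure D2:**
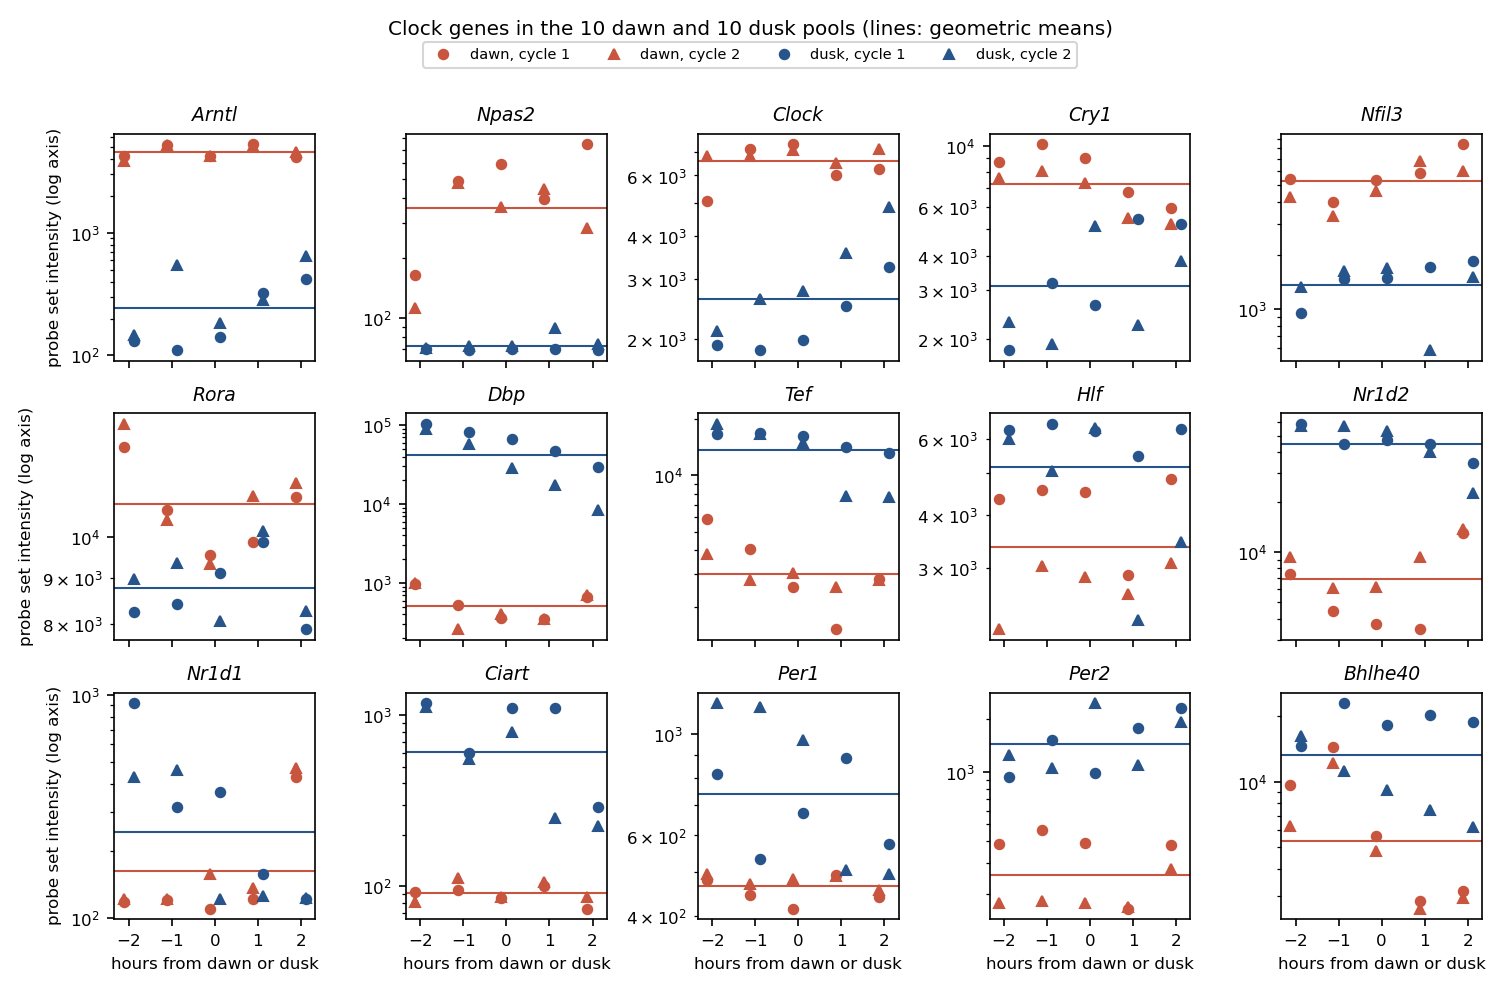
Intensity (log axis) of 15 clock genes in each dawn pool (red) and dusk pool (blue) against the hours from dawn or dusk, with circles for the first cycle, triangles for the second and lines for the geometric means. Arntl, Npas2, Clock and Nfil3 lie higher at dawn and Dbp, Tef, Nr1d2, Ciart and Per2 higher at dusk without overlap, and Nr1d1 overlaps.

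Promoter sequence was set beside these levels for the 3 clock genes with the largest difference in each direction, as a description. Windows of 300 bases, 250 before the transcription start and 50 after it, were read from RefSeq (build GRCm38.p6), and 5 motifs were searched on either strand: the E-box CACGTG, the D-box TTATGTAA, the REV-ERB and ROR element TAGGTCA, the cAMP element TGACGTCA and the heat shock element unit GAANNTTC. The windows of Dbp, Nr1d2 and Npas2 held none of these letters. Those of Ciart, higher at dusk, and of Arntl and Nfil3, higher at dawn, are shown 5′ to 3′ on the strand of the gene, with the matches in capitals. Ciart (chr3:95882179-95882478, minus strand) held 3 E-boxes, which start 116, 58 and 44 bases before the transcription start. Arntl (chr7:113207261-113207560, plus strand, 1 of 2 listed starts) held a REV-ERB and ROR element in base 31 after the start, and Nfil3 (chr13:52980990-52981289, minus strand) the same element on the other strand, 12 bases before it. Where more than 1 start was listed, the start with the most kinds of motif was shown, so that of Arntl was not picked blind to the motifs.
Ciart: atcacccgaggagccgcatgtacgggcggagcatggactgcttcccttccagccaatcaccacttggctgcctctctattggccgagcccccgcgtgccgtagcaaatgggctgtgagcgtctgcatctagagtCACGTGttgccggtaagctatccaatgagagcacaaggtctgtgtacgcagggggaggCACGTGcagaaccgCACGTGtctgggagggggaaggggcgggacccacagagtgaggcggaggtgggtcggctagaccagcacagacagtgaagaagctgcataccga
Arntl: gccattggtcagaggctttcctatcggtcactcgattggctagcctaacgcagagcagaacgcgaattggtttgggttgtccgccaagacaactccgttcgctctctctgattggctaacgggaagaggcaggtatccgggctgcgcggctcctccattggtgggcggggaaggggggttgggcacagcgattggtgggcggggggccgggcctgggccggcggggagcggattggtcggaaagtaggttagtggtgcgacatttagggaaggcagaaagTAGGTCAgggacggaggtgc
Nfil3: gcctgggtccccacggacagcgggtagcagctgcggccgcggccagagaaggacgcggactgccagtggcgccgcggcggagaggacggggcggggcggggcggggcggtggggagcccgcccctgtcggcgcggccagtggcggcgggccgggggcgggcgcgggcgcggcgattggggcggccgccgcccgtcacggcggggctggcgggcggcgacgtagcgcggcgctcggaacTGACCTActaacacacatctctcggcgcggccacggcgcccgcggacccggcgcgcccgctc
Of the 18 clock list genes with a promoter in the table, 5 held an E-box (Per1, Cry1, Ciart, Bhlhe41 and Tef), 2 the REV-ERB and ROR element (Arntl and Nfil3) and 1 a D-box (Per3).

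Over all genes with a promoter in the table, 10.3% of 14368 held the E-box, a gene counting when any of its listed promoters did. The share was 17.3% of the 173 genes over 1.5-fold higher at dusk and 13.0% of the 253 over 1.5-fold higher at dawn. The REV-ERB and ROR element was in 2.57% of all genes, 5.93% of the dawn genes and 2.31% of the dusk genes, and the D-box in 0.842%, 0.395% and 2.89%, the last being 5 genes. The heat shock element unit was in 7.58%, 11.1% and 4.62%, and the cAMP element in 2.94%, 3.56% and 2.31%. These shares are descriptions, were not tested, and a match is not a binding site. Across the whole table of 32851 promoters, 7.15% held the E-box, 0.938% the D-box, 2.61% the REV-ERB and ROR element, 7.86% the heat shock element unit and 1.79% the cAMP element.

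The 12 genes of largest difference at dawn included Arntl and 11 genes outside the clock list. Elovl3, an elongase of very long chain fatty acids, lay between 111371 and 155683 at dawn, with a median of 127128, and between 5704 and 28359 at dusk, with a median of 11073. It was 10.5-fold higher at dawn, and its highest dusk value, at CT59, was far under every dawn value (3.39 ± 0.20, limma, adjusted p = 4.23e-09). Chka, the choline kinase that opens phosphatidylcholine synthesis, lay between 3508 and 8559 at dawn, with a median of 5029.6, and between 315 and 1601 at dusk, with a median of 785 (2.85 ± 0.33, limma, adjusted p = 1.35e-05). All 3 of its probe sets were called higher at dawn. Pdk4, the kinase that shuts pyruvate out of mitochondrial oxidation, lay between 1895 and 4541 at dawn, with a median of 3170.4, and between 217 and 707 at dusk, with a median of 502 (2.69 ± 0.21, limma, adjusted p = 1.61e-07). Clpx, the unfoldase of a mitochondrial protease, had medians of 52826 at dawn and 8439 at dusk and separate windows (2.53 ± 0.14, limma, adjusted p = 1.96e-09).

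Aqp8, a water channel, had medians of 28201 at dawn and 4233 at dusk, and Cldn1, a tight junction protein, 20528 at dawn and 3620.1 at dusk. Both windows stayed apart, with differences of 2.50 ± 0.23 and 2.42 ± 0.14 (limma, adjusted p = 1.14e-06 and 4.23e-09). Tubb2a, a beta tubulin, lay between 39468 and 73070.3 at dawn, with a median of 64486, and between 3666 and 14689 at dusk, with a median of 6550.3 (3.15 ± 0.24, limma, adjusted p = 9.38e-08), on a probe set of a kind that can read related tubulins. Lrfn3, an adhesion protein of the cell membrane, was dim at dusk, at a median of 51.0 against 396 at dawn. It lay between 222 and 501.5 at dawn and between 41.4 and 97.0 at dusk (2.73 ± 0.13, limma, adjusted p = 3.14e-10). The remaining 3 were Tmie, known from the mechanotransduction channel of hair cells (2.52 ± 0.28), Lgalsl, a galectin-related protein (2.45 ± 0.21), and Grk5, a kinase of G protein-coupled receptors (2.43 ± 0.14), with no overlap between the windows in any of them (limma, adjusted p = 1.10e-05, 5.17e-07 and 2.88e-09). The probe set of Tmie can cross-hybridize.

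Among the 12 genes of largest difference at dusk, 8 lay outside the clock list. Usp2, a deubiquitinating enzyme, lay between 259 and 2870.3 at dawn, with a median of 936, and between 5609.8 and 24912 at dusk, with a median of 15408 (-3.93 ± 0.39, limma, adjusted p = 2.57e-06). Noct, nocturnin, of the deadenylase family, was close to it in size, at medians of 975 at dawn and 13349 at dusk (-3.60 ± 0.39, limma, adjusted p = 6.45e-06). In both genes every dusk pool was above every dawn pool, though each ran over a wide range within a window. Lpin1, the phosphatidate phosphatase that makes diacylglycerol for triglycerides, lay between 1639 and 10140.1 at dawn, with a median of 3329.6, and between 10237 and 64111 at dusk, with a median of 34763 (-3.16 ± 0.35, limma, adjusted p = 9.72e-06). Its windows nearly touched, the highest dawn pool being CT22.

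Acot3, a peroxisomal acyl-CoA thioesterase, had medians of 701 at dawn and 5866 at dusk (-3.22 ± 0.23, limma, adjusted p = 6.10e-08), on a probe set that can read related thioesterases. Nrg4, a ligand of ErbB receptors, lay between 179 and 350.2 at dawn, with a median of 299, and between 1421 and 4152 at dusk, with a median of 3156 (-3.20 ± 0.21, limma, adjusted p = 1.30e-08). Coq10b, a coenzyme Q binding protein, had the smallest SE of the 12, with medians of 2946 at dawn and 15427 at dusk and windows far apart (-2.39 ± 0.13, limma, adjusted p = 2.09e-09). Mfsd2a, a lysophospholipid transporter, lay between 482 and 1057 at dawn, with a median of 499, and between 879 and 19722 at dusk, with a median of 4944. One pool in each window made them overlap, CT47 at dawn, at 1057, and CT62 at dusk, at 879 (-3.24 ± 0.37, limma, adjusted p = 1.29e-05). Rgs16, which speeds GTP hydrolysis by G proteins, was highest 2 h before dusk in both cycles, at 5530 and 2128. It had come down to 298 and 596 in the last dusk pool of each cycle (-2.39 ± 0.39, limma, adjusted p = 0.000606). Its windows overlapped, as the highest dawn pool, CT46, lay at 339.

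The difference between the windows does not say when in the day a gene was highest, so the mean levels at midday and at midnight (CT18 to CT20, CT40 to CT44, CT64 and CT65) were set beside it. Of the 893 genes higher at dusk, 791 (88.6%) had their highest mean of the 4 windows at dusk, 66 at midday and 36 at midnight. Of the 657 higher at dawn, 452 (68.8%) had their highest mean at dawn, 99 at midday and 106 at midnight, while 598 (91.0%) were lowest at dusk. The calls used these same dawn and dusk pools, so no called gene could be highest in the window where it was lower. That choice also favors a highest or lowest mean in these windows, and the shares over all genes were not counted. Dbp had nearly the same mean log2 value at midday as at dusk, 15.02 and 15.36, and Nr1d2 was highest at midday, 15.50 against 15.44 at dusk. Cry1 was highest at midnight, 13.08 against 12.83 at dawn.

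**Figure D3:**
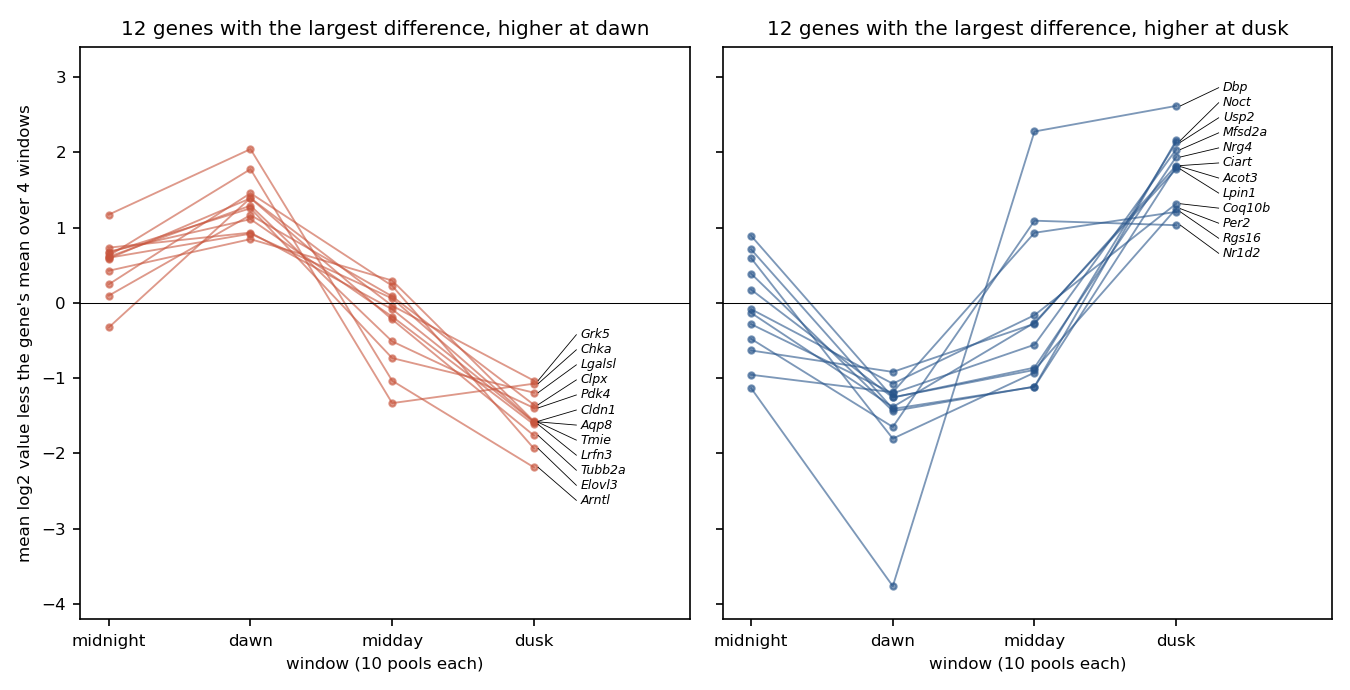
Mean log2 value of each gene in 4 windows of 10 pools, less the mean of those 4 values, for the 12 genes of largest difference at dawn (left) and at dusk (right). Dawn genes are lowest at dusk except Chka, which is lowest at midday, and Dbp, Rgs16 and Nr1d2 are already high at midday.

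Genes of glucose storage differed between the windows in opposite directions. Of 12 measured glycogen genes, 2 were called higher at dawn and 4 at dusk, with a median of -0.15. That was 16.7% and 33.3% of the list, against 3.61% and 4.91% of all genes and 6.90% and 9.39% of those with a mean intensity of at least 200. The counts of each list that follows stand beside these same shares, which were higher at dusk, and beside the median of -0.02 over all genes. Gys2, the liver glycogen synthase, lay between 10873 and 15955 at dawn, with a median of 12577, and between 29829.6 and 41532 at dusk, with a median of 32939.6, a 2.66-fold difference with no overlap (-1.41 ± 0.076, limma, adjusted p = 1.96e-09). Ppp1r3c, a glycogen-targeting subunit of protein phosphatase 1, ran the other way, between 31692 and 64335 at dawn, with a median of 44307, and between 6044 and 18854 at dusk, with a median of 7642 (2.31 ± 0.20, limma, adjusted p = 4.68e-07). With Gys2 went Ugp2, which makes UDP-glucose (-0.58, all 5 probe sets called), Stbd1, a glycogen-binding protein (-0.82), and Phkg2, a subunit of phosphorylase kinase (-0.30). Pygl, the liver glycogen phosphorylase, was higher at dawn (0.46, limma, adjusted p = 0.00680).

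Of 14 genes of gluconeogenesis and glucose sensing, with a median of 0.02, 1 was higher at dawn and 4 higher at dusk. That was 7.14% and 28.6%, against 3.61% and 4.91% of all genes. Genes with a mean intensity of at least 200 had 6.90% and 9.39%. Slc37a4, the glucose-6-phosphate transporter of the ER, had medians of 19206 at dawn and 40218 at dusk and windows that did not overlap (-1.003 ± 0.072, limma, adjusted p = 5.79e-08). Slc2a2, the liver glucose transporter GLUT2 (-0.60 ± 0.078, limma, adjusted p = 5.16e-05), and Pfkfb3, which makes the glycolytic signal fructose 2,6-bisphosphate (-1.75 ± 0.33, limma, adjusted p = 0.00267), were also higher at dusk. Pck1, the first committed enzyme of gluconeogenesis, was called at dusk as well (-1.17 ± 0.34, limma, adjusted p = 0.0461), a call lost when any of 14 single pools was left out, with adjusted p up to 0.0889. G6pc, the last enzyme of the path, was higher at dawn (0.63 ± 0.17, limma, adjusted p = 0.0386). The G6pc call was lost when any of 12 single pools was left out, with adjusted p up to 0.0704, and without CT60 to CT62 the difference was 0.43 (limma, adjusted p = 0.181).

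In fatty acid and triglyceride synthesis, 5 of 24 genes were higher at dawn (20.8%, against 3.61% of all genes) and 4 at dusk (16.7%, against 4.91%), with a median of 0.0046. Beside Elovl3, the dawn genes were Acacb, the mitochondrial acetyl-CoA carboxylase (1.46), Elovl5, an elongase of polyunsaturated fatty acids (1.01), Acss2, an acetyl-CoA synthetase (0.92), and Acly, ATP citrate lyase (0.88). Beside Lpin1, the dusk genes were its relative Lpin2 (-1.22), Elovl6, the elongase of palmitate (-1.04), and Thrsp, a lipogenic factor (-0.77). Thrsp was lost when any of 11 single pools was left out, with adjusted p up to 0.0611, and without CT60 to CT62 (0.189). Elovl3 and Elovl6, both elongases, thus lay on opposite sides: Elovl6 had medians of 11985 at dawn and 22881 at dusk (limma, adjusted p = 3.74e-05).

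Cholesterol synthesis and uptake was a list of dawn calls, 7 of 21 genes (33.3%, against 3.61% of all genes), with 0 at dusk, where 1 had an unadjusted p under 0.05, and a median of 0.32. Without CT48 the count at dawn was 4, and without CT60 to CT62 6, with 1 member then called at dusk. Insig2, which holds the sterol sensor in the ER, lay between 68841 and 94505 at dawn, with a median of 79398, and between 13169 and 30035 at dusk, with a median of 18775 (2.10 ± 0.12, limma, adjusted p = 2.25e-09). The others were enzymes of the pathway. Hmgcs1, which makes HMG-CoA, had medians of 143899.9 at dawn and 68767 at dusk, with all 5 probe sets called (1.06 ± 0.19, limma, adjusted p = 0.00128), and Pmvk, the phosphomevalonate kinase, 13856 at dawn and 6714 at dusk (0.998 ± 0.18, limma, adjusted p = 0.00130). Dhcr7, Fdps, Lss and Ebp followed, with differences of 0.84, 0.80, 0.79 and 0.40. Fdps and Dhcr7 were lost when any of 12 and any of 10 single pools was left out, with adjusted p up to 0.0782 and 0.0718, and Ebp without CT48 (0.05001). Dhcr7 was not called without CT60 to CT62 (0.117), nor Fdps without CT25 and CT46 (0.0623).

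Bile acid genes split evenly, 4 of 15 to each side (26.7%, against 3.61% of all genes at dawn and 4.91% at dusk), with a median of 0.07. Higher at dawn were Cyp8b1, the sterol 12-alpha-hydroxylase (0.85), Abcb11, the bile salt export pump (0.84), Hsd3b7, an early enzyme of the synthesis (0.83), and Nr5a2, a nuclear receptor (0.51). Higher at dusk were Cyp7a1, the rate-limiting enzyme (-0.76, limma, adjusted p = 0.0220), the uptake carriers Slco1b2 (-0.40) and Slc10a1 (-0.23), and the bile acid receptor Nr1h4 (-0.30). The export pump had medians of 47555 at dawn and 28458 at dusk and did not overlap, while the uptake carrier Slc10a1 had medians of 161239 at dawn and 192858 at dusk. Of 5 probe sets of Slco1b2, 1 was called higher at dawn and 2 higher at dusk, so that its direction depends on the probe set. Cyp8b1 was lost when any of 12 single pools was left out, with adjusted p up to 0.0736, and without CT60 to CT62 (0.107).

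Fatty acid oxidation and PPAR alpha targets gave 2 calls at dawn (9.52%, against 3.61% of all genes) and 6 at dusk (28.6%, against 4.91%) among 21 genes, with a median of -0.13. Pdk4 was the large dawn call, and Plin2, which coats lipid droplets, the small one (0.54, limma, adjusted p = 0.00678; without CT60 to CT62, 0.0605). Ppara itself was higher at dusk (-0.63), as were Cpt1a, the gate of mitochondrial fatty acid uptake (-0.76), Angptl4, an inhibitor of lipoprotein lipase (-1.12), Vnn1, a pantetheinase (-0.87), Bdh1, a ketone body enzyme (-0.38), and Acadm, a dehydrogenase of beta-oxidation (-0.14). Pdk4 and Angptl4, both known as PPAR alpha targets, lay at opposite ends of the list. Angptl4 was lost when any of 14 single pools was left out, with adjusted p up to 0.0835.

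In heme, NAD and drug metabolism 3 of 13, 4 of 14 and 7 of 29 genes were called at dusk, which was 23.1%, 28.6% and 24.1% of the lists against 4.91% of all genes, and 1, 0 and 0 at dawn. Alas1, the rate-limiting enzyme of heme synthesis, lay between 19834 and 73689.8 at dawn, with a median of 41478, and between 80653 and 219792 at dusk, with a median of 154330.3, with no overlap (-1.88 ± 0.25, limma, adjusted p = 8.25e-05). Of 13 heme genes, with a median of -0.07, it was 1 of 3 higher at dusk, and Uros was the 1 higher at dawn (0.27), a call lost with the 75th percentile scaling (limma, adjusted p = 0.143). The other 2, Fech (-0.22) and Blvra (-0.34), were each lost when any of 15 single pools was left out, with adjusted p up to 0.0766 and 0.0896, so that Alas1 was the only dusk call of the list without CT23. Without CT25 and CT46 Fech was not called (0.0638), nor Blvra with the 75th percentile scaling (0.104). Nampt, which sets the rate of the NAD salvage pathway, had medians of 4154 at dawn and 15232 at dusk, with all 3 probe sets called (-1.67 ± 0.17, limma, adjusted p = 3.45e-06), in a list of 14 genes with a median of -0.03, 4 calls at dusk and 0 at dawn, where 2 had an unadjusted p under 0.05. The other calls were Nnmt, Sirt3 and Nadk, at -0.58, -0.33 and -0.22. Nnmt was not called without CT60 to CT62 (limma, adjusted p = 0.182) or without CT49 (0.0523).

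Drug metabolism had 7 of 29 genes higher at dusk and 0 at dawn, where 2 members had an unadjusted p under 0.05, with a median of -0.08. Upp2, a uridine phosphorylase, lay between 18769 and 61523 at dawn, with a median of 36245, and between 105030.4 and 176617 at dusk, with a median of 141175 (-2.09 ± 0.18, limma, adjusted p = 7.33e-07). The xenobiotic receptors Nr1i2 (PXR) and Nr1i3 (CAR) differed by -0.76 and -0.45, the efflux pump Abcb1a by -0.94 and the glutathione transferase Gstt2 by -0.91. The remaining calls were Sult1d1, a sulfotransferase (-0.55; without CT60 to CT62, adjusted p = 0.141), and Gstz1, another glutathione transferase (-0.22), which was lost when any of 11 single pools was left out, with adjusted p up to 0.0713, and with the 75th percentile scaling (0.136). Glutathione synthesis was divided between the windows, with Gclc, the catalytic subunit of its first enzyme, higher at dawn (0.67) and Gss, its last enzyme, higher at dusk (-0.76, limma, adjusted p = 0.00176 and 2.79e-06). These were 2 of the 3 calls among 17 antioxidant genes, with a median of 0.03, and the third was Nqo1 at dusk (-0.55). The shares were 5.88% at dawn and 11.8% at dusk, against 3.61% and 4.91% of all genes. Genes with a mean intensity of at least 200 had 6.90% and 9.39%.

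Genes that respond to hormones showed calls on 1 side each. Of 14 glucocorticoid targets, 5 were higher at dusk (35.7%, against 4.91% of all genes) and 0 at dawn, where 1 had an unadjusted p under 0.05. The median of -0.43 was the lowest of the 32 lists. Without CT24 3 were called at dusk. Fkbp5, which binds the receptor's chaperone complex, lay between 1833 and 3319.7 at dawn, with a median of 2312, and between 3697 and 19468 at dusk, with a median of 9641 (-1.94 ± 0.24, limma, adjusted p = 3.14e-05). Cebpd, a transcription factor (-1.13), Errfi1, an inhibitor of EGF receptor signaling (-0.61), and Tdo2, the first enzyme of tryptophan breakdown (-0.31), were the next. Errfi1 was lost when any of 12 single pools was left out, with adjusted p up to 0.0711. Mt1, a metallothionein (-1.29, limma, adjusted p = 0.0261), was lost when any of 5 single pools was left out, with adjusted p up to 0.0534. In insulin and growth hormone signaling, 3 of 21 genes were higher at dawn (14.3%, against 3.61% of all genes) and 0 at dusk, where 6 had an unadjusted p under 0.05, with a median of -0.03. The calls were Stat5b (0.90) and Stat5a (0.60), which carry the growth hormone signal, and Irs1, an insulin receptor substrate (0.84). Without CT60 to CT62, and without CT61 alone, 2 members of that list were called at dusk, and under a scaling to the 75th percentile 3 were.

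**Figure D4:**
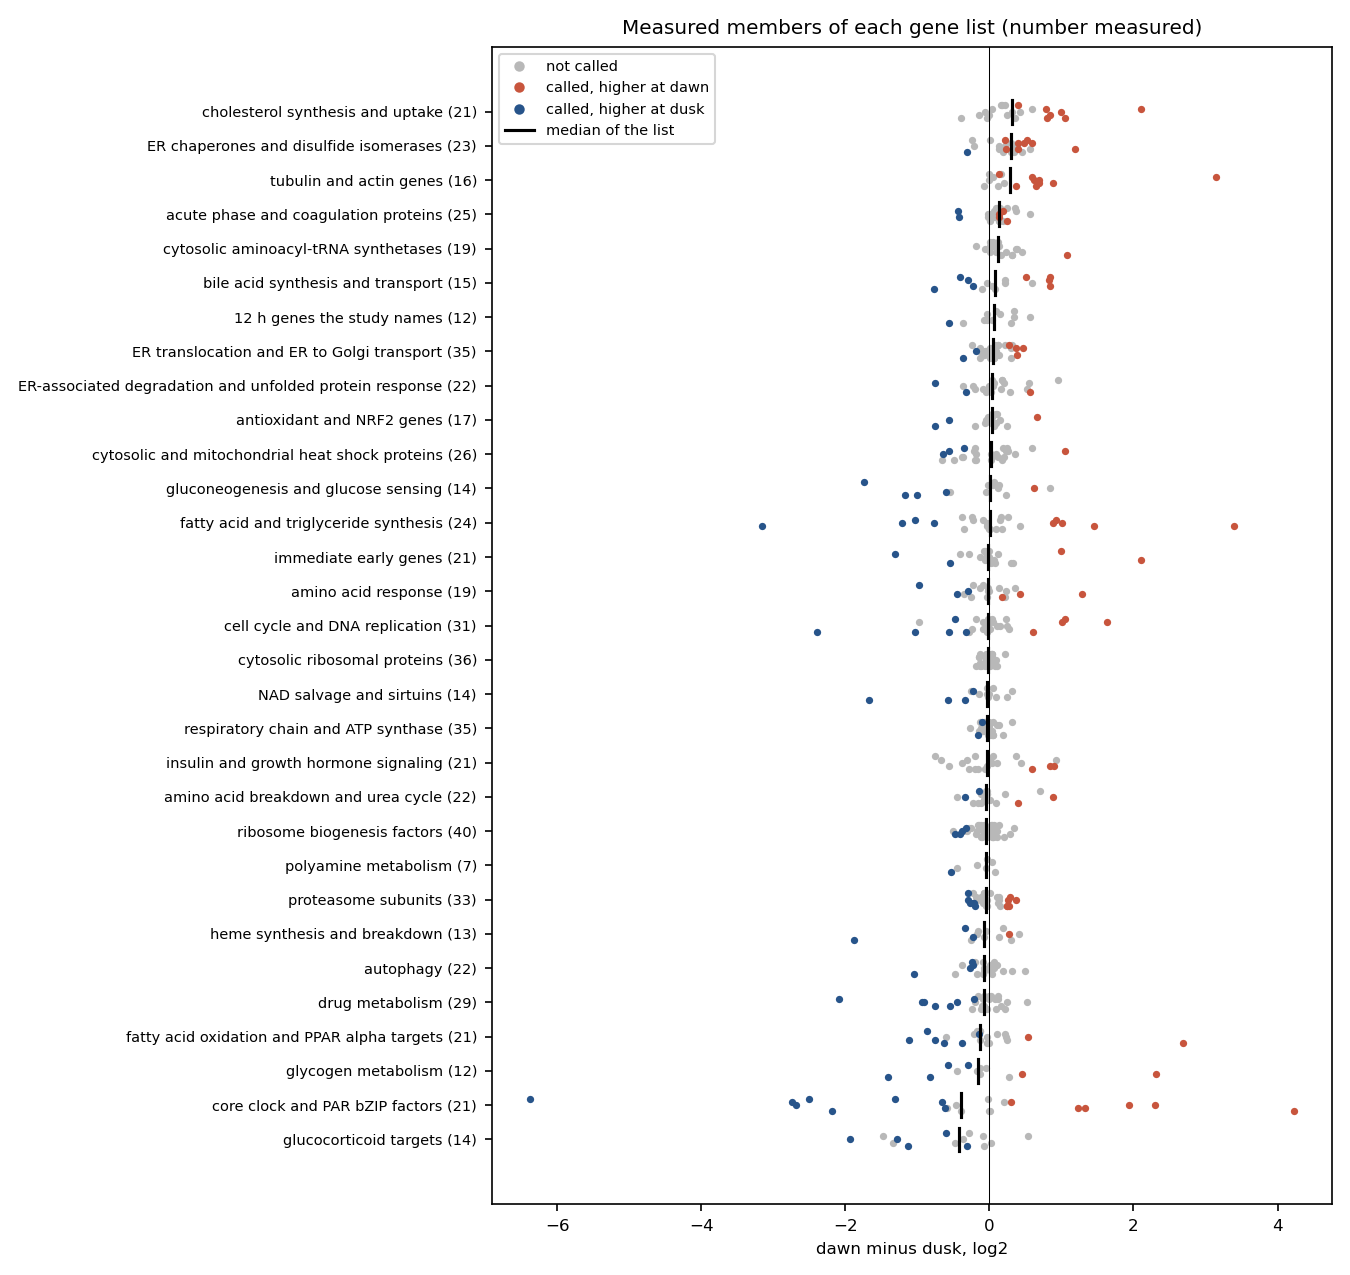
Dawn minus dusk difference (log2, horizontal axis) of each measured member of 31 gene lists, ordered by the median of the list (black bar); red points were called higher at dawn, blue points higher at dusk and grey points were not called. Medians run from -0.43 in glucocorticoid targets to 0.32 in cholesterol synthesis and uptake.

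Genes of protein folding in the ER had small differences, called mostly at dawn. Of 23 ER chaperones and disulfide isomerases, 8 were higher at dawn (34.8%, against 3.61% of all genes) and 1 at dusk (4.35%, against 4.91%), with a median of 0.30. Without CT60 to CT62 these were 6 and 0, without CT34 5 at dawn. Sdf2l1, a chaperone partner, lay between 1580.3 and 6718 at dawn, with a median of 2894, and between 572 and 2276 at dusk, with a median of 1596 (1.195 ± 0.25, limma, adjusted p = 0.00619). Calr, the chaperone calreticulin, and the isomerases Pdia4, Pdia3 and Pdia6 differed by 0.59, 0.53, 0.40 and 0.40, and Dnajb11, Ppib and Dnajc3 by 0.48, 0.23 and 0.22. Dnajc10, an ER reductase, was higher at dusk (-0.32). Dnajb11, Dnajc3 and Pdia4 were lost when any of 13, 6 and 1 single pools was left out, with adjusted p up to 0.0747, 0.0652 and 0.0506, and without CT60 to CT62 Dnajb11, Pdia4 and Dnajc10 were not called (0.190, 0.161 and 0.139). With the 75th percentile scaling Ppib and Dnajc3 were not (0.0764 and 0.1425). Hspa5, the main ER chaperone BiP, did not pass: its windows overlapped, between 149899 and 496357 at dawn, with a median of 299444, and between 178776 and 284811 at dusk, with a median of 220823 (0.30 ± 0.17, limma, adjusted p = 0.270). Within the dawn window it ran from 208167 at CT22 to 394436 at CT26 and from 149899 at CT46 to 496357 at CT50. In ER to Golgi transport, 4 of 35 genes were higher at dawn (11.4%, against 3.61% of all genes) and 2 at dusk (5.71%, against 4.91%), with a median of 0.06. These included Mcfd2, a cargo receptor subunit, at dawn (0.38) and Sec23a, a coat protein, at dusk (-0.36), both with separate windows. In ER-associated degradation, Edem1 was higher at dawn (0.57) and Herpud1 and Erlec1 higher at dusk (-0.76 and -0.32). The list had 22 genes and a median of 0.04, and the calls were 4.55% and 9.09%, against the same 3.61% and 4.91%. Among genes with a mean intensity of at least 200, 6.90% were called at dawn and 9.39% at dusk.

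The 12 genes that the study names in its text for 12 h rhythms were also set against dawn and dusk. They are a part of its longer list. The windows lie 12 h apart, where a regular 12 h rhythm has equal levels. Few calls therefore say nothing on whether these genes cycle. The study also states that the morning and evening peaks of many 12 h genes differ in amplitude, and shows Hspa1b, Dnaja1 and Dsc2. A mean over a window is not the height of a peak, so that statement was not tested here. Of the 12, 0 were called higher at dawn and 1 at dusk, with differences from -0.57 to 0.57 and a median of 0.06. The dusk share was 8.33%, against 4.91% of all genes and 9.39% of those with a mean intensity of at least 200. The call was Dnaja1, an Hsp40 (-0.57 ± 0.14, limma, adjusted p = 0.0219; without CT60 to CT62, 0.154). Creld2, an ER stress gene, had the difference of largest size at dawn, 0.57 ± 0.41, and spread from 7029 to 94383 within the dawn window (limma, adjusted p = 0.353). Hspa1b, an inducible Hsp70 with a near-identical copy, differed by -0.36 ± 0.47 (limma, adjusted p = 0.604). Its mean log2 values were 14.70 at dawn, 15.06 at dusk, 12.94 at midday and 14.06 at midnight. At an unadjusted p under 0.05 the list had 0 members higher at dawn and 1 at dusk.

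Heat shock proteins and ribosome biogenesis factors had few calls, and cytosolic ribosomal proteins had none. Of 26 cytosolic and mitochondrial heat shock proteins, with a median of 0.02, 1 was higher at dawn, Hspb1, a small heat shock protein, at medians of 5825 at dawn and 2783 at dusk (1.05 ± 0.19, limma, adjusted p = 0.00135), and 3 at dusk, the Hsp40 genes Dnajb6, Dnaja1 and Dnaja2 (-0.64, -0.57 and -0.35). That was 3.85% and 11.5% of the list, against 3.61% and 4.91% of all genes. Genes with a mean intensity of at least 200 had 6.90% and 9.39%, so the dusk share was near theirs. Without CT60 to CT62 that list had 4 calls at dawn and 2 at dusk, and without CT38 3 at dawn. Hspb1 was highest at the last pool of both dusk windows, at 5182 and 4457, and at the first pool of both dawn windows, going from 8321 at CT22 and 8426 at CT46 to 4798 at CT26 and 4411 at CT50. Of 40 ribosome biogenesis factors, with a median of -0.05, 4 were higher at dusk. At dawn 0 were, also at an unadjusted p under 0.05. The dusk calls were the nucleolar proteins Ncl, Gnl3, Npm1 and Wdr43, from -0.47 to -0.32. They made up 10% of the list, against 4.91% of all genes and 9.39% of those with a mean intensity of at least 200. With the 75th percentile scaling 6 were called at dusk. None of 36 cytosolic ribosomal proteins was called, with differences from -0.18 to 0.21 and a median of -0.02, and at an unadjusted p under 0.05 0 were higher at dawn and 2 at dusk.

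A single tRNA synthetase stood apart from its list. Tars, the threonyl-tRNA synthetase, lay between 29442 and 33853 at dawn, with a median of 30535, and between 13100.4 and 17170.1 at dusk, with a median of 14092, with the smallest SE of all called genes over 2-fold (1.08 ± 0.048, limma, adjusted p = 3.14e-10). It was the 1 of 19 synthetases called. That was 5.26%, against 3.61% of all genes at dawn and 6.90% of those with a mean intensity of at least 200. The list had a median of 0.12, and 5 members had an unadjusted p under 0.05 at dawn and 0 at dusk. With the 75th percentile scaling 4 were called at dawn, and without CT58 2. In the amino acid response, with a median of -0.02, 3 of 19 genes were higher at dawn, Atf5 (1.29), Psph (0.43) and Atf4 (0.17), and 3 at dusk, Cebpb (-0.98), Gpt2 (-0.45) and Eif4ebp1 (-0.30), which was 15.8% each way against 3.61% and 4.91% of all genes. Of these, Atf4 was lost when any of 13 single pools was left out, with adjusted p up to 0.0796, and with the 75th percentile scaling (0.366). In amino acid breakdown, Hal, the histidine ammonia-lyase (0.88), and Nags, which makes the activator of the urea cycle (0.39; without CT60 to CT62, adjusted p = 0.0556), were higher at dawn, and Oat and Arg1 higher at dusk (-0.34 and -0.15), among 22 genes with a median of -0.05, or 9.09% each way. Among genes with a mean intensity of at least 200, 6.90% were called at dawn and 9.39% at dusk. Arg1 was not called with the 75th percentile scaling (limma, adjusted p = 0.137).

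Tubulin and actin genes were called at dawn in 9 of 16 cases (56.3%, against 3.61% of all genes) and at dusk in 0, with a median of 0.29, and none at dusk had an unadjusted p under 0.05. After Tubb2a came Tubb4b (0.89, the only 1 of its 6 probe sets called), Tubb5 (0.70), Tuba4a (0.68), Actb, the cytoplasmic beta actin (0.65), Vcl, vinculin (0.62), Tubb6 (0.60), Tuba1a (0.37) and Cfl1, cofilin (0.13). Actb lay between 228283 and 269587 at dawn, with a median of 259122, and between 87128 and 225338 at dusk, with a median of 178404, with no overlap, and 4 of its 5 probe sets were called (limma, adjusted p = 0.00279). Tuba4a had medians of 136088 at dawn and 86705 at dusk. Vcl was lost when any of 3 single pools was left out, with adjusted p up to 0.0541, Tuba1a without CT60 to CT62 (0.0694) and Cfl1 with the 75th percentile scaling (0.429). Members of these families are alike in sequence, and their probe sets may share signal.

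Cell cycle genes gave 4 calls at dawn (12.9%, against 3.61% of all genes) and 5 at dusk (16.1%, against 4.91%) among 31 measured, with a median of -0.02. Without CT60 to CT62, and also without CT23, 3 were called at dusk. Wee1, the kinase that holds back mitosis, lay between 418 and 854 at dawn, with a median of 664, and between 2012 and 4753 at dusk, with a median of 3275 (-2.39 ± 0.15, limma, adjusted p = 1.08e-08). The cyclins E went the same way, Ccne2 by -1.03 and Ccne1 by -0.48, with Cdk1 at -0.56 and Cdkn2c at -0.33. The calls of these last were lost when any of 15 and any of 11 single pools was left out, with adjusted p up to 0.0860 and 0.0659, and without CT60 to CT62 (0.0560 and 0.0772), that of Cdkn2c also with the 75th percentile scaling (0.0527). Cdkn1a, the inhibitor p21, was higher at dawn: it lay between 70.9 and 660.1 at dawn, with a median of 191, and between 63.6 and 71.1 at dusk, with a median of 67.6 (1.63 ± 0.31, limma, adjusted p = 0.00225). All dusk values were those of a dim probe set, and the dawn values were higher in the first cycle, with a difference of 2.56, than in the second, with 0.70, though the test between cycles did not call it. Ccng2, Mcm7 and Mcm4 were the other dawn calls (1.04, 1.002 and 0.60).

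Immediate early genes gave 2 calls on each side of 21 (9.52%, against 3.61% of all genes at dawn and 4.91% at dusk), with a median of -0.01. Btg1, an antiproliferative gene, was higher at dawn without overlap (0.99 ± 0.13, limma, adjusted p = 6.01e-05), and Klf10, a zinc finger factor, higher at dusk (-1.31 ± 0.27, limma, adjusted p = 0.00413). Egr1, an early growth response factor, lay between 479 and 9416 at dawn, with a median of 2511, and between 84.0 and 2496 at dusk, with a median of 622 (2.11 ± 0.56, limma, adjusted p = 0.0303). The call was lost when any of 12 single pools was left out, with adjusted p up to 0.0595, without CT60 to CT62 (0.197) and without CT25 and CT46 (0.0581). Maff, a small Maf factor, was higher at dusk (-0.55; without CT60 to CT62, adjusted p = 0.0744).

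Protein and organelle turnover showed small differences in both directions. Of 33 proteasome subunits, with a median of -0.05, 6 were higher at dawn, from 0.25 (Psmd14) to 0.37 (Psmd11), and 6 at dusk, from -0.30 (Psmb1) to -0.21 (Psma6, not called without CT60 to CT62, adjusted p = 0.0912). That was 18.2% each way, against 3.61% and 4.91% of all genes. At dusk Psma7 and Psma2 were lost when any of 16 and any of 11 single pools was left out, with adjusted p up to 0.0931 and 0.0724. The split depends on the scale, since with the 75th percentile scaling 1 was called at dusk, and without CT60 to CT62 3 were called on each side. Of 22 autophagy genes, with a median of -0.08, 0 were higher at dawn, where 2 had an unadjusted p under 0.05, and 4 at dusk (18.2%, against 4.91% of all genes), the largest being Bnip3, a mitophagy receptor, at medians of 51642 at dawn and 111355 at dusk (-1.05 ± 0.11, limma, adjusted p = 4.05e-06). Becn1 (-0.27), Atg3 (-0.23) and Map1lc3b (-0.25) were smaller. Becn1 was not called without CT60 to CT62 (limma, adjusted p = 0.0561), and Map1lc3b was lost when any of 13 single pools was left out, with adjusted p up to 0.0836. Atg3 was not called with the 75th percentile scaling (0.1099). In polyamine metabolism, with a median of -0.05, 1 of 7 genes was called, Azin1, the antizyme inhibitor, at dusk (-0.54 ± 0.050, limma, adjusted p = 1.57e-06). That was 14.3% of a short list, against 4.91% of all genes and 9.39% of those with a mean intensity of at least 200.

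Calls among abundant secreted and mitochondrial proteins were of small differences. Among genes with a mean intensity of at least 200, 6.90% were called at dawn and 9.39% at dusk. Of 25 acute phase and coagulation genes, with a median of 0.13, 4 were higher at dawn (16.0%, against 3.61% of all genes) and 2 at dusk (8.0%, against 4.91%), the fibrinogen chains Fga, Fgb and Fgg (0.24, 0.13 and 0.14) and ceruloplasmin, Cp (0.18), against Saa4 (-0.44; without CT60 to CT62, adjusted p = 0.104) and Hamp, hepcidin (-0.42). Fgg lay between 502404 and 532138 at dawn, with a median of 518883, and between 437576 and 499409 at dusk, with a median of 470734, a difference of 1.10-fold without overlap (limma, adjusted p = 0.000775). With the 75th percentile scaling Fgb, Fgg and Cp were not called (limma, adjusted p = 0.356, 0.408 and 0.165), and 2 members of the list were called at dawn. Of 35 genes of the respiratory chain and ATP synthase, with a median of -0.03, 0 were higher at dawn, where 2 had an unadjusted p under 0.05, and 2 at dusk (5.71%, against 4.91% of all genes), Ndufs1 (-0.15) and Uqcrfs1 (-0.11). With that scaling 0 were called at dusk, and without CT59 4. The 1 measured cold-inducible RNA binding protein gene was not called, at -0.03.

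The dawn minus dusk difference was then compared between the 2 cycles, as an interaction. Of 45101 probe sets, 1 was called (0.00222%), while 2798 (6.20%) had an unadjusted p under 0.05. The gene was P2ry1, a receptor for ADP, which is named here after its values were seen. Its dawn pools lay between 128 and 159, its dusk pools between 158 and 296, and the difference was -0.80 over the first cycle but -0.047 over the second (limma, interaction adjusted p = 0.0208). The call was lost when any of 10 single pools was left out, with adjusted p up to 0.0739. Without CT25 the count was 34, without CT25 and CT46 34 as well, and without CT60 to CT62 6. All 1550 genes called over both cycles had the same sign in each, and 328 of the 657 dawn genes and 397 of the 893 dusk genes had it in all 10 pairs of pools 12 h apart. The call itself rests on the mean over both cycles, so the same sign in each was largely set by it. The share over all genes was not counted. Tested alone, the first cycle gave 1811 calls and the second 315. Of 130 called genes among the 148 chosen for naming, 103 were called in the first cycle alone and 41 in the second, and 0 had a call in the opposite direction.

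Of the 982 called genes read by more than 1 probe set, 405 had another probe set called in the same direction. This held for 74 of the 119 such genes among the 184 called genes chosen by the rule or as list and marker members. Of the 982, 4 had one called in the other direction, Cisd1, Ddx6, Dpp4 and Slco1b2. Grk5, Pfkfb3, Cebpd, Stat5a, Pdia3 and Pdia6 were among the genes called through only 1 of 2 probe sets. Dmbt1, a scavenger receptor of mucosal surfaces that was picked after its values were seen, had the largest difference of any gene that did not pass, -3.56 ± 1.05, and lay between 46.8 and 2396 at dawn, with a median of 48.8, and between 48.2 and 11873 at dusk, with a median of 1423 (limma, adjusted p = 0.0528). Neat1, a nuclear noncoding RNA also picked in this way, had medians of 36858 at dawn and 9146 at dusk and overlapping windows (1.59 ± 0.50, limma, adjusted p = 0.0759). Of all settings, wider windows gave the largest count: with pools within 3 h instead of 2 h, 10120 probe sets were called, 7857 of them higher at dusk, and without CT27 and CT63, 2 of the pools so added, 4041. The number over 1.5-fold was 1003 and 943.

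**Figure D5:**
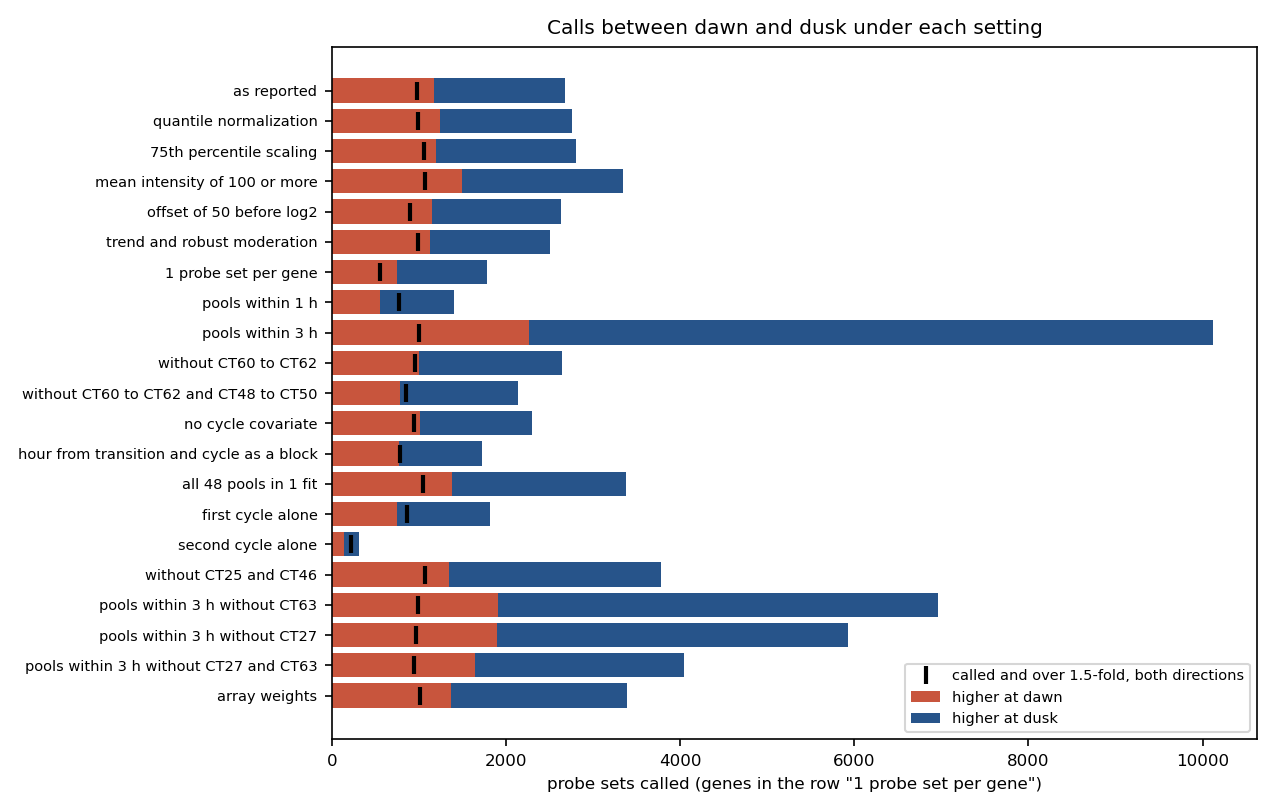
Number of probe sets called (horizontal axis) under each setting, red for higher at dawn and blue for higher at dusk, with a black mark at the number also over 1.5-fold. The total runs from 315 in the second cycle alone to 10120 with pools within 3 h, and the black marks from 222 to 1071; the setting with 1 mean per window and cycle gave 0 calls and is not drawn.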

How the data were processed

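Total RNA of pooled mouse livers was hybridised hourly from CT18 to CT65, 1 array per pool. The deposited intensities, on a linear scale, were background-corrected and normalized between arrays by the authors, with GCRMA per the study's methods and MAS5 per the submitters' processing notes, so which of them made these values is not settled here. No probe-level data were used.

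Log2 values of the 20 pools were fitted with limma 3.58.1 in R 4.3.3 (window, cycle as covariate, eBayes), and p-values were adjusted by Benjamini-Hochberg over all 45101 probe sets. Another fit added the interaction of window and cycle. The probe annotation named 1 gene for 34958 probe sets, more than 1 for 932 and no gene for 9211. Summaries used Python 3.11.15. No filter was set, and the number of pools limits the precision. Fold changes on this scale depend on the background correction, most of all in dim probe sets.

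The windows, the 32 gene lists, the markers of 10 cell types and the rule for naming were chosen with earlier results of these data known. Named were the 12 genes of largest difference each way (mean intensity of at least 200, same sign in both cycles), all clock and 12 h genes, the 4 called members of smallest p in each other list, and genes that differed between cycles. A further 54 called list or marker members were taken with them. Not all of the genes so chosen appear in the text. Alternatives changed the scaling, filter, offset, moderation, windows, covariates, cycles and pools.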

Additional observations from a re-analysis of the deposited data

Results flagged for a closer look

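The 148 genes chosen for naming and the further 54 called members were checked for single pools that stood apart. In each, the highest and the lowest pool of a window were checked for a gap to the next pool. The gap had to be large against the whole range of the window on the log2 scale. Of 404 windows of 10 pools, 35 had such a pool, where chance gives about 1 in 20, and since the values change with the hour a pool at the edge of a window can stand apart for its hour alone. The part of the hour, the pool or the array in these values was not tested. The numbers that follow are the gap divided by the range.

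At dusk, the low pool was CT60 in Csnk1d (0.526), Pmvk (0.683), Stat5a (0.492) and Fdps (0.595), and the high pool was CT60 in Ncl (0.683). CT61 was the low pool in Pdk4 (0.603), Irs1 (0.467), Edem1 (0.467), Tubb4b (0.498), Copg1 (0.504) and Nr1i3 (0.685), and the high pool in Npas2 (0.699), Sec23a (0.478) and Uros (0.576). CT62 was the low pool in Mfsd2a (0.475), Pck1 (0.510) and Errfi1 (0.4996) and the high pool in Gstt2 (0.519). CT60 to CT62 thus gave 18 of the 20 such dusk windows, and the others were low at CT59 in Wdr43 (0.531) and at CT38 in S100a9 (0.547).

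At dawn, CT46 was the low pool in Irs1 (0.526), Nags (0.468), Tubb4b (0.552) and Psmd11 (0.499) and the high pool in Rgs16 (0.484). CT50 was the low pool in Aqp8 (0.516), Acly (0.471) and Thrsp (0.563), and CT22 the low pool in Clpx (0.527) and the high pool in Lss (0.506) and Ebp (0.499). The remaining dawn pools were CT47, high in Mfsd2a (0.800), CT49, low in Pfkfb3 (0.495), CT26, high in Abcb11 (0.467), and CT25, low in Ppara (0.468).

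A difference between the cycles was called in P2ry1, where dawn minus dusk was 0.75 higher in the later cycle than in the earlier one on the log2 scale.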

How the results depend on the processing

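Against 2676 probe sets called, 981 over 1.5-fold and 1 with a difference between cycles, 1 probe set per gene gave 1776 and 556 calls, out of fewer features tested. Pools within 1 h gave 1404 calls, within 3 h 10120, of which 22.4% were higher at dawn against 43.7% of the 2676, and 10 pairs of a dawn and a dusk pool 12 h apart, as a replicate block, 1718. The second cycle alone gave 315 and 222, and 1 mean per window and cycle 0 and 0, with 5702 at an unadjusted p under 0.05. Alternatives chosen after seeing the data gave 6967 within 3 h without CT63 (27.4% at dawn), 5923 without CT27 (32.0%) and 4041 without both. The difference between cycles was called in 0 probe sets with the 75th percentile scaling, with trend and robust moderation, within 1 h and in all 4 settings within 3 h, in 6 without CT60 to CT62, in 26 also without CT48 to CT50, and in 34 without CT25 and CT46, an alternative chosen after seeing the data. Array weights, chosen so as well, gave 3385 calls. Leaving out each pool in turn gave 2237 to 3034 calls, 898 to 1079 over 1.5-fold and 0 to 34 between cycles. The cause of these shifts was not tested.

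None of the 130 called genes among the 148 changed direction and call in any alternative, and 123 stayed called whichever single pool was left out. Most of these genes were picked from the same pools for a large difference or a small p. That choice favors calls that stay, so these counts do not describe called genes in general. The number still called was 119 to 130 under the other scalings, filters, offset and moderation, 91 within 1 h, 113 with the block, 110 without CT60 to CT62 and CT48 to CT50, and 0 with 1 mean per window and cycle. Of all probe sets, 49.4% averaged under 100, where a signal near background limits what can be called, and pooled livers without a replicate at any hour leave the spread between animals unmeasured.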
